A study of Mus musculus with 12 samples.

Results

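A set of 10 transcription factor genes that help set the B-cell or the plasma cell state, Prdm1, Irf4, Xbp1, Pax5, Bach2, Bcl6, Irf8, Spib, Pou2af1 and Ebf1, were followed across 12 arrays of mouse B lymphoma cells. They were taken by their symbol in the platform annotation, and each had 1 probe set, so 10 of the 18820 genes tested are described. The cells were primary cultures from l-MYC;B1-8f mice of a C57BL/6J x BALB/c background that combine transgenic MYC with the B1-8f heavy chain, a B-cell receptor (BCR) allele open to deletion by Cre. All cultures had received TAT-Cre, a Cre protein able to cross the cell membrane, so BCR-negative and BCR-positive cells of one lymphoma grew together, and they were parted by flow sorting after 4 days. The 4 groups were untreated BCR-negative cells, untreated BCR-positive cells, CHIR99021-treated BCR-negative cells and CHIR99021-treated BCR-positive cells, where CHIR99021 inhibits the kinase GSK3. Lymphomas 2564, 2646 and 2676 each gave 1 array to each group (n = 3 per group). The dose of CHIR99021, the age of the mice and the promoter of the MYC transgene are not named in the labels.

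EBF1 and PAX5 are the factors that commit progenitors to the B lineage and keep them there, while SPIB, IRF8 and the octamer coactivator encoded by Pou2af1 help mature B cells respond to antigen. BCL6 and BACH2 hold activated B cells in the germinal centre and repress Prdm1, whose product Blimp-1 starts the plasma cell programme and in turn represses Pax5 and Bcl6. IRF4 is needed on both sides of this switch, and XBP1 builds the secretory apparatus of plasma cells after its RNA is spliced, a step that a gene-level probe set does not read.

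The sorted cells carried the labels' identity in most but not all B-cell markers. Ighv1-72, the variable segment of the B1-8 heavy chain, was lower in BCR-negative cells, with a log2 difference of -2.11 ± 0.331 in untreated cultures and -2.95 ± 0.331 in CHIR99021 cultures (mean difference within lymphomas ± SE, limma, adjusted p = 0.0176 and adjusted p = 0.0498). Of 9 measured B-cell markers, Cd79a ranged from 10.89 to 11.77 and Cd79b from 11.03 to 11.70 in log2 expression over the 12 arrays. Cd37, Cd22 and Ptprc had no value under 8.34. Others differed between tumours: Blk lay at 4.63 to 5.31 in lymphoma 2564 and 4.77 to 5.01 in 2646, against 6.96 to 8.65 in 2676, and over all arrays Cd74 ranged from 5.86 to 10.28 and H2-Aa from 4.28 to 9.66. Ms4a1, which encodes CD20, lay at 3.03 to 3.92 and was the 1 B-cell marker below the 30th percentile of gene means. Of the markers of other cells, 3 of 7 T-cell, 4 of 7 myeloid, 4 of 5 NK-cell, 2 of 5 stromal and 0 of 3 erythroid genes were below that percentile. The mean log2 level of the 7 myeloid markers lay between 4.23 and 4.89 in untreated BCR-negative cells and between 4.17 and 4.64 in untreated BCR-positive cells, and between 4.32 and 4.87 in CHIR99021-treated BCR-negative cells and between 4.04 and 4.79 in CHIR99021-treated BCR-positive cells. Among them Csf1r differed between the lymphomas, at 4.52 to 4.86 in lymphoma 2564, 6.96 to 8.53 in 2646 and 5.76 to 6.85 in 2676, while the macrophage genes Adgre1 (3.49 to 3.64) and Cd14 (3.26 to 4.37) were low on all 12 arrays. Itgam, which encodes CD11b, lay between 4.68 and 8.03.

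Levels of several members belonged first to the tumour. In the 10 genes, differences between lymphomas made up between 20.9% (Irf4) and 96.6% (Bach2) of the sum of squares, against 76.7% over all genes. The 4 arrays of a lymphoma come from 1 tumour, so differences between lymphomas are given as levels, with no test.

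Bach2 was low in 1 of the 3 lymphomas. In lymphoma 2646 its log2 expression was 5.16 in untreated BCR-negative, 5.07 in untreated BCR-positive, 4.77 in treated BCR-negative and 5.24 in treated BCR-positive cells. Lymphoma 2564 gave 10.5, 9.73, 9.32 and 8.67 for these groups, and lymphoma 2676 gave 10.4, 10.1, 9.81 and 9.66. Even the lowest of these 8 values, 8.67, stood far above the highest of lymphoma 2646, 5.24. BACH2 is the repressor that delays plasma cell differentiation, so 1 tumour had little signal from one of the repressors of Prdm1. A Bach2 mean over 3 lymphomas mixes these levels, and its differences in lymphoma 2646 are differences between low signals.

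Bcl6, the germinal centre repressor, was low in another tumour. On the 4 arrays of lymphoma 2564 it ranged from 4.46 to 4.95, against 6.11 to 7.33 in 2646 and 6.02 to 6.70 in 2676. Irf8 was also lowest in lymphoma 2564, with 8.29 to 8.90, against 9.69 to 10.1 in 2646 and 9.28 to 9.42 in 2676. Its ranges did not overlap between tumours. Differences between lymphomas took 88.4% of the sum of squares of Bcl6 and 90.0% of that of Irf8. Prdm1 (23.7%), Irf4, Pax5 (33.7%), Xbp1 (38.0%), Spib (38.3%), Pou2af1 (43.7%) and Ebf1 (43.9%) varied less between tumours relative to their variation within them.

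**Figure D1:**
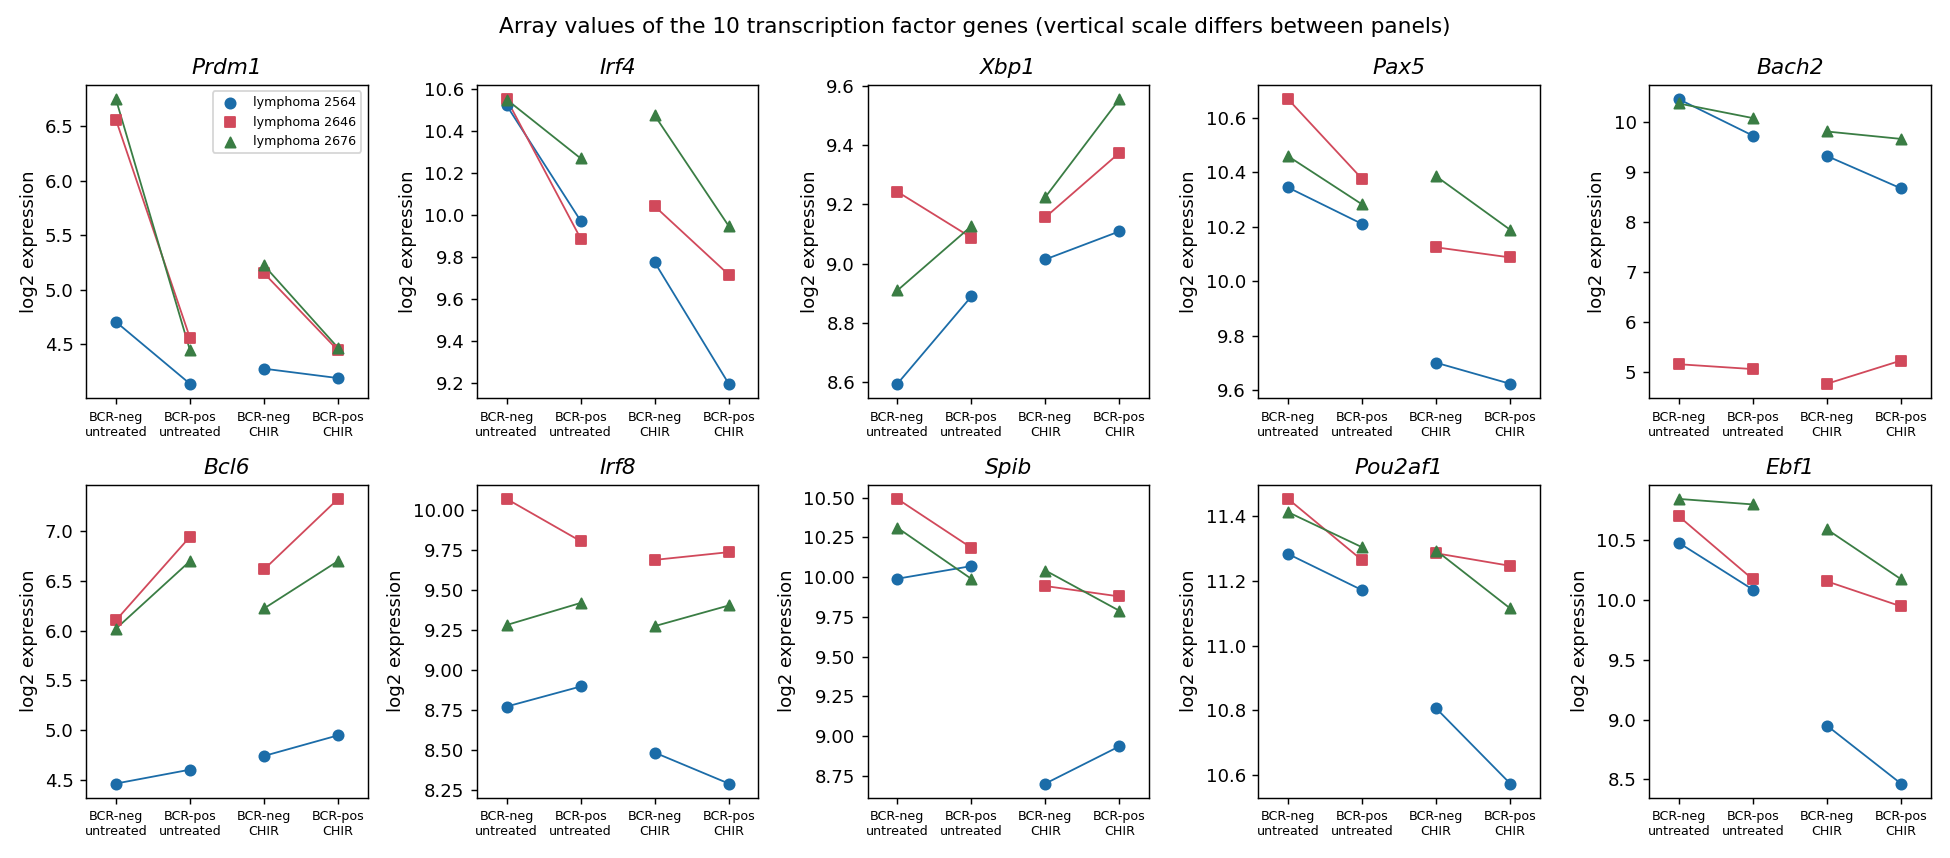
Log2 expression of each of the 10 genes (vertical axis, own scale per panel) on the 12 arrays, by group (horizontal axis), with 1 colour and symbol per lymphoma and a line joining BCR-negative and BCR-positive cells of the same culture. Bach2 sits near 5 in lymphoma 2646 only, and Prdm1 is highest in untreated BCR-negative cells of lymphomas 2646 and 2676, at 6.56 and 6.75.

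The first comparison asked what BCR loss did to these genes in untreated cultures. Prdm1 rose and was the 1 member called at an adjusted p under 0.05 (limma with lymphoma as a block, adjusted over 18820 genes), none fell, and 9 did not pass. Over all genes 4.2% were called, 359 higher (1.91%) and 432 lower (2.3%); subtracting array medians turned this split to 350 and 738, and cyclic loess to 448 and 216. The median difference of the 10 members was 0.19, beside 0.00 over all genes, and 8 of the 10 were positive, Irf8 among them only by a value that turned negative after subtraction of array medians. With bulk RNA from sorted cells, a change in the share of cells that express a gene and a change in its RNA per cell cannot be told apart.

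Prdm1 had log2 expression of 4.71, 6.56 and 6.75 in untreated BCR-negative cells of lymphomas 2564, 2646 and 2676, against 4.14, 4.56 and 4.44 in untreated BCR-positive cells. The groups did not overlap, which held for 11% of all genes and, of the members, for Prdm1 and Irf4. The rise was 1.62 ± 0.293 (3.08-fold, 95% interval 0.97 to 2.28, adjusted p = 0.0248 in limma), made of 1.48-fold in lymphoma 2564, 4.01-fold in 2646 and 4.94-fold in 2676. BCR-positive cells of all 3 lymphomas were alike in Prdm1 (SD 0.22, n = 3), and the spread lay in the BCR-negative cells (SD 1.13, n = 3). The SE and interval rest on 1 residual spread shared by all 4 groups, so they do not measure the spread of this comparison. Of its 3 log2 differences, 0.57 (lymphoma 2564) and 2.30 (2676) lay outside that interval. Prdm1 was low in BCR-positive cells and its background was not measured, so these folds may be lower bounds. The myeloid gene Itgam was also higher in untreated BCR-negative cells, with 5.46, 8.03 and 7.34 in lymphomas 2564, 2646 and 2676, against 5.18, 6.63 and 6.74 in untreated BCR-positive cells (difference 0.76 ± 0.261, limma, adjusted p = 0.130), and in treated BCR-negative cells with 5.21, 6.46 and 7.41, against 4.68, 6.02 and 6.63 in treated BCR-positive cells. Over the 7 myeloid markers 4 differences were positive in untreated cultures (median 0.02) and none passed, and their part in the Prdm1 result was not tested. The call of Prdm1 ended without the lymphoma block (adjusted p = 0.481), with the block as random (adjusted p = 0.0730), with the 6 untreated arrays alone (adjusted p = 0.111), and without lymphoma 2646 (adjusted p = 0.305) or 2676 (adjusted p = 0.170). It also ended without any 1 of the untreated arrays of lymphomas 2646 and 2676 (adjusted p = 0.0592 to 0.115).

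The stretch just before the start of Prdm1 is shown because motifs of factors that are known to act on this gene can be read in it. RefSeq promoter windows (GRCm38.p6) matched all 10 members, with 13 windows, and the 250 bases before each start were searched on both strands. In the window chr10:44458749-44458998, minus strand, the capitals mark the only match to the motifs searched, an AP-1 element (TGANTCA) whose first base lies 48 bases before the start. AP-1 and BACH2 are both known to bind elements of this kind.
Prdm1: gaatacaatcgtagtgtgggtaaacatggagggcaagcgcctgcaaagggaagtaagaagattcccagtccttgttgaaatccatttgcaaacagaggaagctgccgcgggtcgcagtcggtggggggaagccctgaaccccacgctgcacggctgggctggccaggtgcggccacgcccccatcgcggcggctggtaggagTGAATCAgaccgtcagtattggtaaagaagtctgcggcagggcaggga
The AP-1 letters occur in 6.75% of 32851 promoter windows of this length. The longer BACH2 form with a small MAF protein (TGANTCA preceded by TGC, 0.353% of windows), which contains the AP-1 letters, was in none of the 13 member windows, and neither were the Blimp-1 letters (GTGAAAG, 3.57%), the octamer (ATGCAAAT, 1.6%) or the ETS letters (GAGGAAGT, 2.44%). A match is a string of letters and not a measured site.

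Irf4, the factor whose dose separates germinal centre from plasma cell fate, had a narrow range in untreated BCR-negative cells. Its log2 expression there was 10.52, 10.55 and 10.55 in lymphomas 2564, 2646 and 2676, against 9.97, 9.89 and 10.3 in untreated BCR-positive cells. All 3 values of the BCR-negative cells lay above all 3 of the BCR-positive cells, but the difference of 0.50 ± 0.132 (1.41-fold, 95% interval 0.20 to 0.79) did not pass over all genes (limma, adjusted p = 0.0643). It passed after cyclic loess scaling (adjusted p = 0.0465), without the untreated BCR-negative array of lymphoma 2676 and without the treated BCR-positive array of 2564. In limma it did not pass without the block (adjusted p = 0.729), with a random block (adjusted p = 0.153) or with the untreated arrays alone (adjusted p = 0.0982).

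Bcl6 was lower in BCR-negative cells of each lymphoma without passing. It measured 4.46, 6.11 and 6.02 in untreated BCR-negative cells of lymphomas 2564, 2646 and 2676, against 4.60, 6.94 and 6.70 in untreated BCR-positive cells. The difference was -0.55 ± 0.140 (95% interval -0.87 to -0.24, limma, adjusted p = 0.0568), largest in lymphoma 2646 (-0.84) and smallest in 2564 (-0.14), the tumour in which Bcl6 was low in every group. It passed without either untreated array of lymphoma 2564, and with adjusted p = 0.0240 without that lymphoma, 0.0457 without dim genes, 0.0452 after subtraction of array medians and 0.0441 with trend and robust estimation. In limma it did not pass without the block (adjusted p = 0.9999), with a random block (adjusted p = 0.591) or with the untreated arrays alone (adjusted p = 0.140).

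Bcl6 has 2 promoter windows, shown because BCL6 is known to repress its own gene and the letters it shares with STAT factors (TTCNNNGAA) stood in both, 1 time in the first and 3 times in the second. The capitals mark those letters and, near the end of the second window, an ETS-IRF composite (GGAA and GAAA parted by 2 bases) of the kind that IRF4 or IRF8 bind with SPI1 or SPIB. The windows are chr16:23988853-23989102 and chr16:23981284-23981533, minus strand.
Bcl6, first window: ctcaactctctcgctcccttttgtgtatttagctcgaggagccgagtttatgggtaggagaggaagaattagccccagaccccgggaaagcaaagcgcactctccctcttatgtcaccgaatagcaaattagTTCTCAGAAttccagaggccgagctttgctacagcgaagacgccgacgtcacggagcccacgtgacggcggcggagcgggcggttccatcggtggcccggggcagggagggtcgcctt
Bcl6, second window: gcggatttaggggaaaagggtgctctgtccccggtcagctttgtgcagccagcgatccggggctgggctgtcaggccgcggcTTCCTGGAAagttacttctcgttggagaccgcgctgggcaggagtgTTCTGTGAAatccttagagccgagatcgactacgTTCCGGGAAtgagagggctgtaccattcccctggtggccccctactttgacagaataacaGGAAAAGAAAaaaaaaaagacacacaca
The BCL6 and STAT letters were in 4 of the 13 member windows and in 7.02% of all windows, and the ETS-IRF letters in 2 of 13 and in 2.3%.

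The genes that keep B-cell identity gave small differences in this comparison. Ebf1 (0.32 ± 0.264), Pax5 (0.20 ± 0.113) and Pou2af1 (0.14 ± 0.104) were higher in BCR-negative cells of all 3 lymphomas and Spib (0.18 ± 0.216) of 2, and none passed (limma, adjusted p = 0.371 to 0.732). The 95% intervals ran from -0.27 to 0.91 for Ebf1 and -0.30 to 0.67 for Spib. They ran from -0.05 to 0.45 for Pax5 and -0.10 to 0.37 for Pou2af1. Irf8 had a mean difference of 0.00 ± 0.118, with an interval of -0.26 to 0.26. Bach2 differed by 0.37 ± 0.254 and Xbp1 by -0.12 ± 0.0988, with Xbp1 lower in lymphomas 2564 and 2676 and higher in 2646.

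The second comparison set BCR-negative against BCR-positive cells while both were exposed to CHIR99021. No member was called, and over all genes 3 were (0.0159%), 2 higher (0.0106%) and 1 lower (0.00531%). At an unadjusted p under 0.05 there were 2 members, Irf4 and Bcl6, and 1628 genes. Irf4 kept the same order in each lymphoma, with 9.77, 10.04 and 10.5 in treated BCR-negative cells of 2564, 2646 and 2676, against 9.20, 9.72 and 9.95 in treated BCR-positive cells. Its difference of 0.48 ± 0.132 was close in size to that without the inhibitor, and the groups overlapped, as they did for all 10 members (6.32% of all genes did not overlap). Bcl6 had 4.74, 6.62 and 6.22 in treated BCR-negative cells, against 4.95, 7.33 and 6.70 in treated BCR-positive cells, a difference of -0.46 ± 0.140. The adjusted p was 0.470 for Irf4 and 0.480 for Bcl6 in limma.

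The BCR difference of Prdm1 was smaller with CHIR99021 in every lymphoma. Its values were 4.28, 5.15 and 5.22 in treated BCR-negative cells of 2564, 2646 and 2676, against 4.19, 4.44 and 4.47 in treated BCR-positive cells. The difference of 0.52 ± 0.293 did not pass (limma, adjusted p = 0.640). The interaction, the BCR difference with CHIR99021 minus that without, was -1.11 ± 0.414 for Prdm1 and negative in 3 of 3 lymphomas (-0.48, -1.29 and -1.55), and it did not pass over all genes (limma, adjusted p = 0.928). No gene of the 18820 passed that test (0%), while 990 had an unadjusted p under 0.05, Prdm1 among them (unadjusted p = 0.0240) as the 1 member. The interaction of Irf4 was -0.02 ± 0.187 and that of Bcl6 0.09 ± 0.198.

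**Figure D2:**
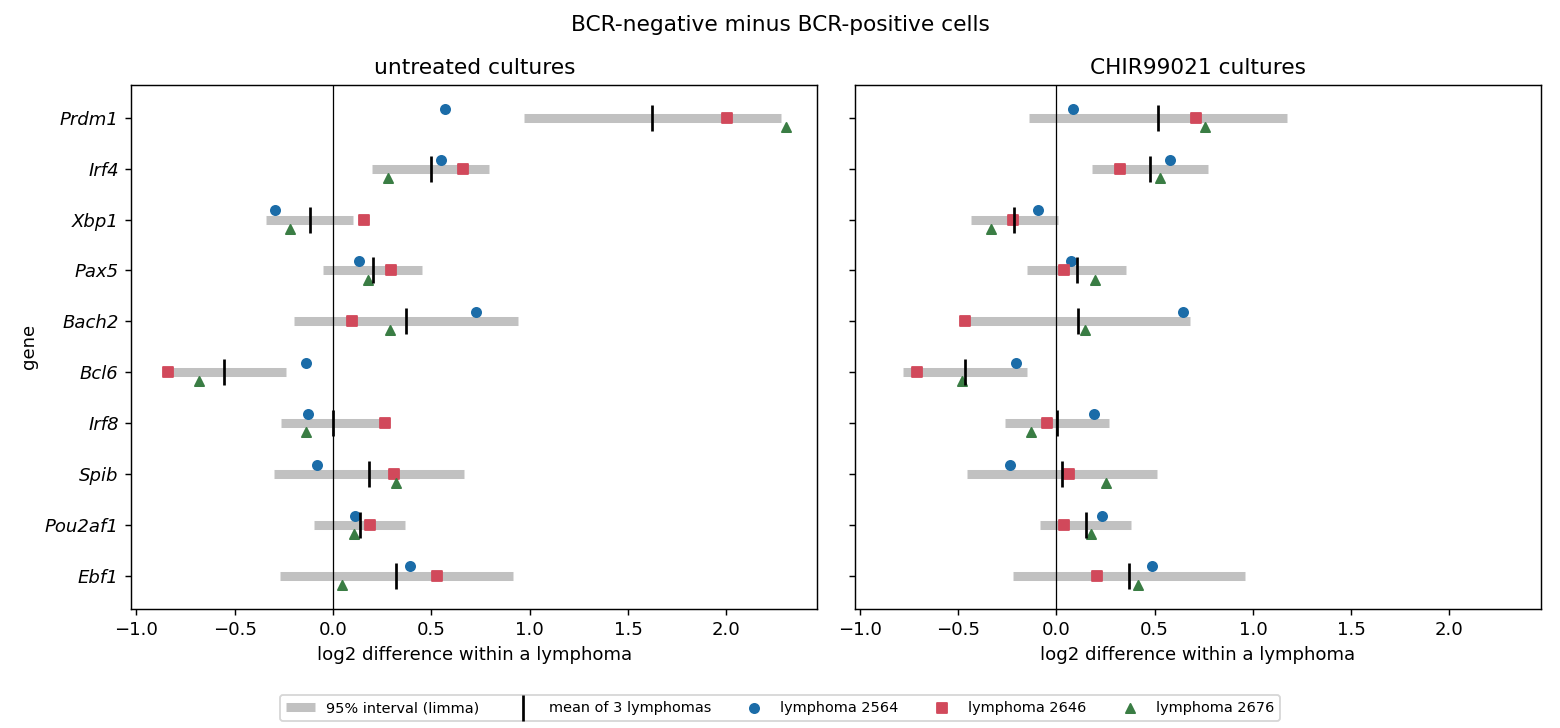
Difference in log2 expression of BCR-negative minus BCR-positive cells (horizontal axis) for each gene (vertical axis) in untreated cultures (left) and CHIR99021 cultures (right). Symbols are single lymphomas, ticks their mean and grey bars the 95% interval from limma; Irf4 lies right of 0 and Bcl6 left of 0 in every lymphoma of both cultures.

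Because Irf4 and Bcl6 had like differences in both cultures, BCR loss was also fitted as the average over untreated and CHIR99021 cultures, a contrast added after the values were seen. Irf4 was higher in BCR-negative cells by 0.49 ± 0.0936 (adjusted p = 0.0233, limma), in 6 of 6 lymphoma-culture pairs. Bcl6 was lower by 0.51 ± 0.0992 (adjusted p = 0.0240, limma), also in 6 of 6. Prdm1 was higher by 1.07 ± 0.207 (adjusted p = 0.0234), in 6 of 6, with pair differences from 0.09 to 2.30. With this contrast 6.63% of all genes were called, and 3 of 10 members, 2 of them higher (3.17% of all genes) and 1 lower (3.46%). A gene was higher in 6 of 6 pairs for 5 members (Prdm1, Irf4, Pax5, Pou2af1 and Ebf1) and for 6.67% of all genes, and lower in 6 of 6 for Bcl6 and for 5.96%. The 3 calls were lost without the block, with a random block, and without lymphoma 2646 or 2676 (0 members in each of these 4 fits). Over all 18820 genes these fits called only 6, 137, 1 and 11, so the losses were not particular to the members.

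The next comparisons asked what CHIR99021 did within each population. No member was called in BCR-negative cells, where 3.68% of all genes were (1.91% higher and 1.76% lower), nor in BCR-positive cells, where 0.0744% were (0.00531% higher and 0.0691% lower). In BCR-negative cells 360 genes were called higher and 332 lower; with array medians subtracted the split was 449 against 313, and cyclic loess gave 232 against 415. The members had a median difference of -0.43 in BCR-negative and -0.30 in BCR-positive cells, beside 0.01 and 0.00 over all genes, and 8 of 10 were negative in each (Prdm1 in BCR-positive cells at -0.01, which turned positive after subtraction of array medians). An unadjusted p under 0.05 was reached by 8 of 10 members in BCR-negative cells (7 negative) and 6 of 10 in BCR-positive cells (5 negative), beside 3576 and 1891 of all 18820 genes. The untreated BCR-negative arrays enter both this comparison and the first, so a gene that is high on them is positive in the one and negative in the other by construction.

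Ebf1, the pioneer factor of the B lineage, had the largest differences of the B-cell identity genes. It measured 8.95, 10.2 and 10.6 in treated BCR-negative cells of lymphomas 2564, 2646 and 2676, against 10.5, 10.7 and 10.8 in untreated BCR-negative cells. In BCR-positive cells it measured 8.47, 9.95 and 10.2 with CHIR99021, against 10.1, 10.2 and 10.8 without. Every treated value was below the untreated value of its own lymphoma, and lymphoma 2564 stood apart with differences of -1.53 and -1.62, against -0.23 to -0.62 in the other tumours. The means were -0.77 ± 0.264 in BCR-negative and -0.82 ± 0.264 in BCR-positive cells (limma, adjusted p = 0.139 and adjusted p = 0.30).

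Spib, an ETS factor of mature B cells, had the same shape. It was 8.70, 9.94 and 10.04 in treated BCR-negative cells, against 9.99, 10.5 and 10.3 in untreated ones, and 8.94, 9.88 and 9.79 in treated BCR-positive cells, against 10.07, 10.2 and 9.99 in untreated ones. In BCR-positive cells the treated and untreated groups did not overlap, as for Pax5 and for 7.35% of all genes. The mean differences were -0.70 ± 0.216 and -0.55 ± 0.216 (limma, adjusted p = 0.104 and adjusted p = 0.419).

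Pax5, the guardian of B-cell identity, measured 9.70, 10.1 and 10.4 in treated BCR-negative cells, against 10.3, 10.7 and 10.5 in untreated ones. In BCR-positive cells it was 9.62, 10.1 and 10.2 with CHIR99021, against 10.2, 10.4 and 10.3 without. The differences of -0.42 ± 0.113 and -0.32 ± 0.113 did not pass (limma, adjusted p = 0.0725 and adjusted p = 0.354). Without lymphoma 2676, in which Pax5 differed by -0.07 and -0.09, the difference in BCR-negative cells was -0.59 and passed (adjusted p = 0.0483).

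Irf4 showed differences of -0.44 ± 0.132 in BCR-negative cells, where the groups did not overlap (8.65% of all genes), and -0.42 ± 0.132 in BCR-positive cells (limma, adjusted p = 0.0965 and adjusted p = 0.293). Pou2af1 (-0.25 and -0.27) and Irf8 (-0.23 in each population) were lower in treated cells of all 3 lymphomas in both populations. Bach2 was lower in treated cells of lymphomas 2564 and 2676, with differences of -1.13 and -0.56 in BCR-negative and -1.05 and -0.42 in BCR-positive cells, and in lymphoma 2646, where its signal was low, it differed by -0.39 and 0.17. Its 250-base window (chr4:32417185-32417434, plus strand), shown because Bach2 is the member that differed most between tumours, holds 1 BCL6 and STAT match and, on the opposite strand near its end, 1 ETS-IRF match, both in capitals.
Bach2: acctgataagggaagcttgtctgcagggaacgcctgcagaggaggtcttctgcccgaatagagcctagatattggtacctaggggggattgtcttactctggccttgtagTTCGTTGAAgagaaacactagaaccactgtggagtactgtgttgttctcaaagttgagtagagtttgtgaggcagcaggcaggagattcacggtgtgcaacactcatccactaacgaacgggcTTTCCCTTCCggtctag
The windows of Irf4, Xbp1 and Pax5, and the second windows of Irf8 and Ebf1, held none of the motifs searched. Of the letters not yet named, the IRF element (GAAA and GAAA parted by 2 bases) was in the first Ebf1 window (2.98% of all windows), the EBF1 letters (CCCNNGGG, 11.8%) in the Spib window at overlapping places, and the XBP1 letters (TGACGTGG, 0.563%) in the Pou2af1 window.

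The difference of Prdm1 between the populations in this contrast is the interaction given above. In treated BCR-negative cells it differed from untreated ones by -1.12 ± 0.293 (limma, adjusted p = 0.0657), with -0.43, -1.41 and -1.52 in lymphomas 2564, 2646 and 2676, and it passed without lymphoma 2564 (-1.47, adjusted p = 0.00390). In BCR-positive cells, where it was low to begin with, it differed by -0.01 ± 0.293. Bcl6 and Xbp1 were the 2 members with positive mean differences in both populations. Bcl6 differed by 0.33 ± 0.140 and 0.24 ± 0.140 and was higher with CHIR99021 in 6 of 6 pairs (8.1% of all genes), though by 0.00089 in BCR-positive cells of lymphoma 2676. Xbp1 differed by 0.22 ± 0.0988 and 0.31 ± 0.0988 and was higher in 5 of 6. None of these 4 differences passed (limma, adjusted p = 0.238 to 0.636).

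**Figure D3:**
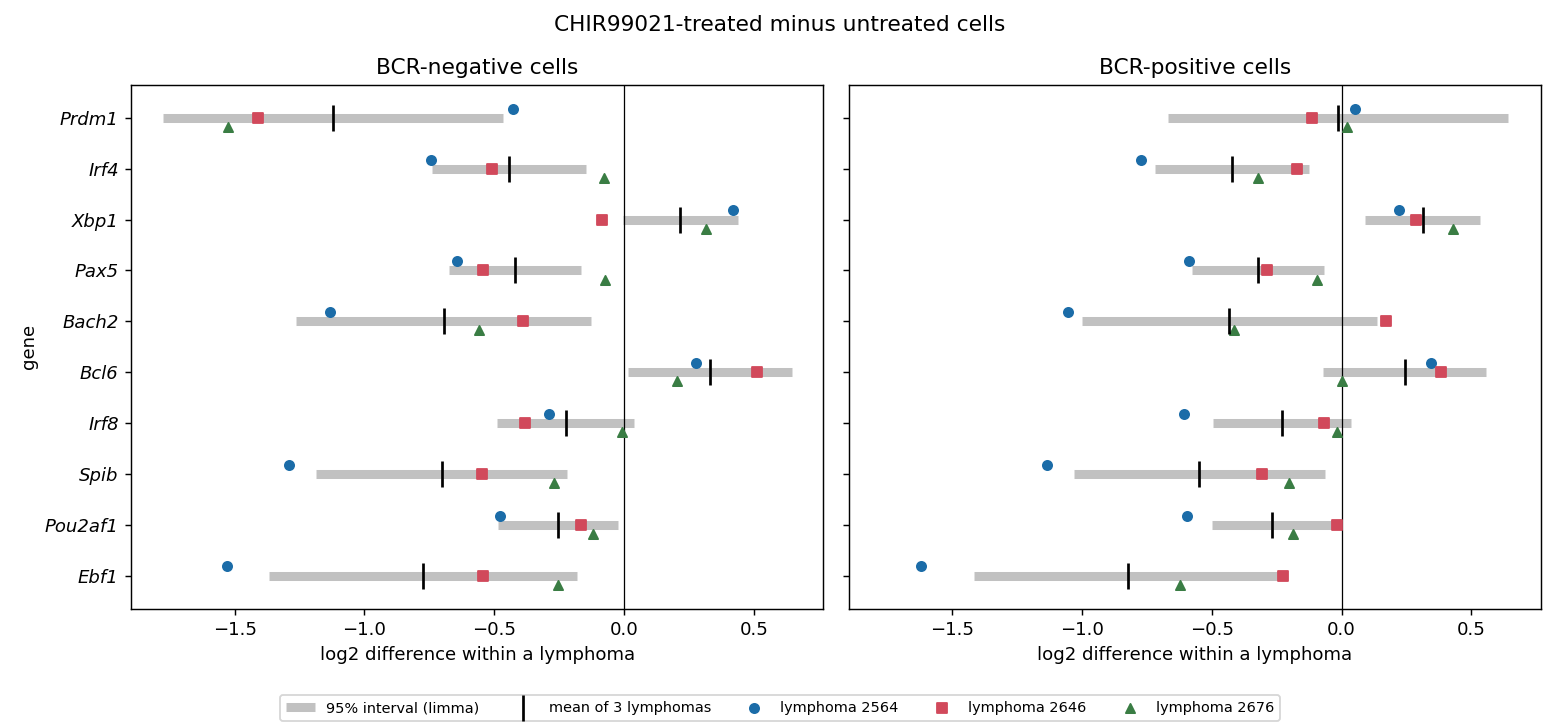
Difference in log2 expression of CHIR99021-treated minus untreated cells (horizontal axis) for each gene (vertical axis) in BCR-negative (left) and BCR-positive cells (right). Symbols are single lymphomas, ticks their mean and grey bars the 95% interval from limma; the circles of lymphoma 2564 lie farthest left for Ebf1, Spib, Bach2 and Irf4 in both panels.

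Averaged over both populations, again a contrast added after the values were seen, CHIR99021 lowered Ebf1 by 0.80 ± 0.187, Spib by 0.62 ± 0.153, Irf4 by 0.43 ± 0.0936 and Pax5 by 0.37 ± 0.0799 (limma, adjusted p = 0.0253 to 0.0389). In the separate populations the 9 B-cell markers were all negative with CHIR99021 as well, with a median of -0.33 in BCR-negative cells, where 1 (Cd79b) fell, and -0.18 in BCR-positive cells, where none was called; their part in the members' differences was not tested. These 4 of 10 members were called lower and none higher, beside 7.38% of all genes called, 3.47% lower and 3.91% higher. Xbp1 (0.26 ± 0.0698, adjusted p = 0.0508 in limma) and Pou2af1 (-0.26 ± 0.0733, adjusted p = 0.0624) did not pass; subtraction of array medians or leaving out dim genes added Xbp1 (higher) to the calls, cyclic loess added Pou2af1, and trend and robust estimation added both and lost Spib and Ebf1. Lower values in 6 of 6 pairs were seen for 6 members (Irf4, Pax5, Irf8, Spib, Pou2af1 and Ebf1) and for 6.01% of all genes. The sizes were uneven between tumours. In BCR-negative cells the members' median was -0.56 in lymphoma 2564, -0.45 in 2646 and -0.10 in 2676, and in BCR-positive cells -0.60, -0.09 and -0.14, while the median of all genes stayed between -0.01 and 0.02. None of the 4 was called without the block, with a random block or without lymphoma 2646, where 22, 220 and 84 of all 18820 genes were. Without lymphoma 2564 the 1 member called was Prdm1 (lower), beside 403 of all genes. Without 2676 it was Pax5, beside 458 of all genes.

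Treated BCR-negative cells were last set against untreated BCR-positive cells. No member was called (3 genes were, 0.0159%), for none were the groups apart (6.57% of all genes), and 1644 genes and 1 member, Spib, had an unadjusted p under 0.05. Prdm1 was still higher in each lymphoma, by 0.14, 0.59 and 0.78, with a mean of 0.50 ± 0.293 (95% interval -0.15 to 1.16). Irf4 differed by 0.05 ± 0.132, Bcl6 by -0.22 ± 0.140, Ebf1 by -0.45 ± 0.264 and Spib by -0.52 ± 0.216 (limma, adjusted p = 0.526 to 0.965 for these 4).

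After subtraction of each lymphoma's mean, several pairs of members varied together over the 12 arrays. No grouping of the members was computed, and the pairs named are examples. Irf4, for one, had an r of 0.65 with Prdm1, 0.88 with Pax5 and -0.81 with Bcl6. Of all genes, 5% had an absolute r with Irf4 above 0.84, a level that Prdm1 and Bcl6 did not reach. Pearson's r was 0.99 between Pou2af1 and Ebf1, 0.93 between Pax5 and Spib, 0.91 between Irf4 and Pou2af1 and -0.89 between Prdm1 and Bcl6, while Prdm1 and Irf8 had an r of 0.19. These values describe arrays that come from 3 tumours, share cultures and carry the group differences already given. The genes most like Prdm1 by the same measure were Sertad1 (r of 0.98), Zfp655 (0.97), Plekhg1 (0.97), Laptm4a (0.97) and Dgcr6 (0.97), where 5% of all genes had an absolute r with Prdm1 above 0.86.

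**Figure D4:**
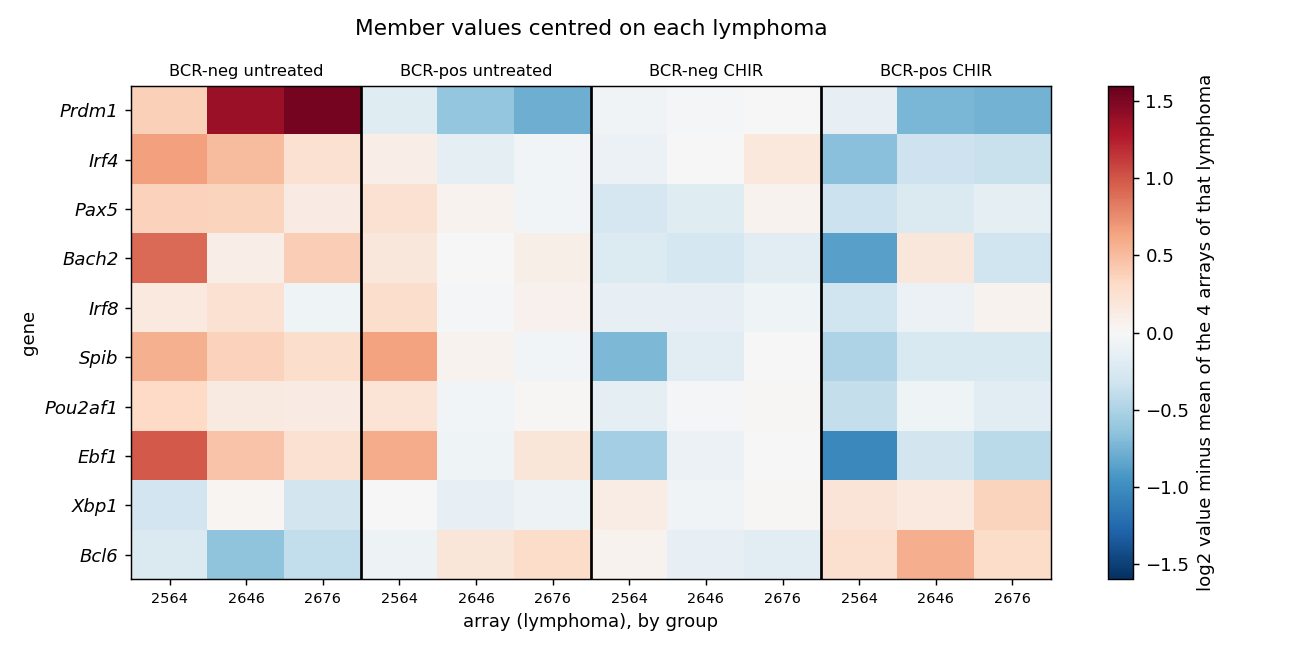
Log2 expression of each gene (rows) on each array (columns, by group and lymphoma) minus the mean of the 4 arrays of that lymphoma, on a colour scale from blue (lower) to red (higher). Prdm1, Irf4, Pax5, Spib, Pou2af1 and Ebf1 are red in untreated BCR-negative cells, and Bcl6 is blue there and red in treated BCR-positive cells.

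Genes that act downstream of or beside the members were counted from 6 lists. Among 26 measured other transcription factors of B cells, BCR loss in untreated cultures raised 5 and lowered 1 (1.91% and 2.3% of all genes), with a median of 0.13. All 6 calls were lost with a random block and with the 6 untreated arrays alone. The 4 with the smallest p were Relb (0.65 ± 0.117), an NF-κB subunit, Tcf12 (0.44 ± 0.0844), an E protein, Zbtb20 (0.83 ± 0.162), a BCL6-related factor of plasma cells, and Foxp1 (0.35 ± 0.0694). The 1 that fell, named after its value was seen, was Mef2c (-0.57 ± 0.117). Their adjusted p in limma ran from 0.0252 to 0.0317. With CHIR99021 in BCR-negative cells 6 of the 26 fell (1.76% of all genes) and none rose (median -0.25), all 6 lost with a random block or the compared arrays alone, led by Foxp1 (-0.41 ± 0.0694), Zbtb20 (-0.96 ± 0.162), Ikzf3 (-0.65 ± 0.121), which encodes Aiolos, and Runx1 (-0.59 ± 0.112), with adjusted p of 0.0172 to 0.0258 in limma.

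Few plasma cell genes were called. Of 11 measured plasma cell markers none was called for BCR loss in untreated cultures (median -0.10), beside 1.91% of all genes higher and 2.3% lower. With CHIR99021 in BCR-negative cells 1 fell (1.76% of all genes), Derl3 (-0.86 ± 0.181, adjusted p = 0.0362 in limma), which acts in endoplasmic reticulum quality control. Derl3 was also lower with CHIR99021 in BCR-positive cells, without a call. It measured 5.12, 5.52 and 6.42 there in lymphomas 2564, 2646 and 2676, against 6.46, 5.82 and 7.29 untreated. A pair of defining markers, named after their values were seen, lay low on all 12 arrays. These were Jchain at 3.56 to 3.83 and Tnfrsf17 at 3.88 to 4.19. The plasma cell marker Sdc1, also named after its values were seen, was not low, at 7.96 to 8.98. Sdc1 measured 7.98, 8.98 and 8.83 in untreated BCR-negative cells of lymphomas 2564, 2646 and 2676. The untreated BCR-positive cells had 7.96, 8.15 and 8.62. This difference of 0.35 ± 0.153 did not pass (limma, adjusted p = 0.230). Of 16 measured XBP1 targets, 2 rose with BCR loss (1.91% of all genes), the co-chaperone gene Dnajb9 (0.88 ± 0.201) and Herpud1 (0.40 ± 0.0853). Another 2 fell (2.3% of all genes), Creld2 (-0.46 ± 0.0881) and Pdia6 (-0.43 ± 0.101), with a list median of -0.25. These 4 calls were lost with a random block, and after subtraction of array medians 2 rose and 5 fell. With CHIR99021 in BCR-negative cells 4 of the 16 rose (1.91% of all genes) and 2 fell (1.76%), with a median of 0.24. Among these 6 were Sec61a1 (0.31 ± 0.0566), a subunit of the protein channel of the endoplasmic reticulum, Dnajb11 (0.45 ± 0.0975), Herpud1 (-0.46 ± 0.0853) and Dnajb9 (-0.93 ± 0.201). Of the 6 only Sec61a1 was called with a random block. The adjusted p of the XBP1 targets named ran from 0.0240 to 0.0484 in limma.

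Of 14 measured targets of PAX5 and EBF1, 3 rose with BCR loss (1.91% of all genes) and none fell (2.3%), with a median of 0.14. The 3 were the signalling adaptor Blnk (0.63 ± 0.0962), Cplx2 (1.25 ± 0.252) and the complement regulator Cd55 (0.92 ± 0.194). The 3 calls were lost with a random block, as were the next 2. With CHIR99021 in BCR-negative cells 2 fell (1.76% of all genes), Cd79b (-0.33 ± 0.0604) and Cd55 (-0.92 ± 0.194), and 13 of 14 were negative (median -0.35). In BCR-positive cells the list median with CHIR99021 was close to that, at -0.33, with 1 of 14 positive and none called. None of 10 measured genes repressed by Blimp-1 was called for BCR loss in untreated cultures (median 0.18) or CHIR99021 in BCR-negative cells (median -0.18). Of 10 genes repressed by BCL6, BCR loss raised 2 (1.91% of all genes), the activation marker Cd69 (1.80 ± 0.398) and the cell cycle inhibitor Cdkn1b (0.49 ± 0.111). The list median was 0.12, with 8 of 10 positive. With CHIR99021 in BCR-negative cells 3 fell (1.76% of all genes), Cd69 (-1.87 ± 0.398), Cdkn1b (-0.49 ± 0.111) and the adhesion receptor Cd44 (-0.24 ± 0.0541). The list did not fall as a whole there, with 5 of 10 positive and a median of 0.11. All calls of this list were lost with a random block. The adjusted p of the called genes of the PAX5 and EBF1 list and the BCL6 list ran from 0.0170 to 0.0449 in limma. In the other 4 comparisons no gene of the 6 lists was called. Without the block, with only the arrays compared or without lymphoma 2646 none was called for BCR loss in untreated cultures or CHIR99021 in BCR-negative cells either, a random block left Sec61a1 alone, without 2676 none was for BCR loss, and without 2564 CHIR99021 in BCR-negative cells left 0 or 1 call per list. The myeloid marker Lyz2 rose with CHIR99021 in BCR-negative cells (0.46 ± 0.100, adjusted p = 0.0388 in limma) and stayed between 3.52 and 4.28 on all arrays, and its part in these results was not tested.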

How the data were processed

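The deposited values are log2 expression per probe set of an Affymetrix mouse gene array, which the authors computed by RMA with Power Tools of Affymetrix, per the submitters' processing notes. No version or build was found in the labels, and the log2 scale was read from the values. Of 35556 probe sets, 21218 had 1 gene symbol, 1881 had several and 12457 were not listed. Of the 21218, 21185 were matched by Entrez identifier to RefSeq (GRCm38.p6) and no symbol changed. The probe set with the highest mean stood for a gene, which left 18820 genes. Limma 3.58.1 in R 4.3.3 was fitted to all 12 arrays with group and lymphoma (6 residual degrees of freedom), with eBayes and Benjamini-Hochberg adjustment over all genes, and a call means an adjusted p under 0.05. It was also run on simulated data with noise drawn under the same model. That run cannot show how the fit behaves when groups differ in spread. The labels number the lymphomas without saying that each came from its own mouse, so p-values measure the spread between these samples. The residual spread of a gene is shared by the 4 groups, so an SE does not measure the spread within 1 comparison. The pairing comes from the labels, and deviations from group means of arrays of one lymphoma correlated at r of 0.813 to 0.907 (18 pairs). The members, lists and motifs were chosen with earlier results of these data known. Named genes were all members, up to 4 called genes per list and comparison with the smallest p, and the 5 genes most like each called member; exceptions are marked in the text. Listed genes that were not among the genes tested are not reported here. The number of arrays limits the precision. Alternatives concerned the block, the arrays fitted, dim genes, probe set means, scaling, eBayes and left-out lymphomas or arrays.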

Additional observations from a re-analysis of the deposited data

How the results depend on the processing

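The number of members called for BCR loss in untreated cultures was 1, beside 791 of all 18820 genes. It moved to 0 with no replicate block, with a random replicate block and with only the arrays compared. Over all genes these 3 fits called 5, 75 and 0, so the loss was not particular to the members. The number of members called moved to 2 without dim genes (999 of 13174 genes called), after subtraction of array medians, after cyclic loess and with trend and robust estimation. It lay between 0 and 2 when a lymphoma or an array was left out. With BCR loss averaged over both cultures it was 3 (1247 of all genes), where the CHIR99021 cultures alone gave 0. For CHIR99021 in BCR-negative cells leaving out a lymphoma gave 0 to 1, and averaging over both populations gave 4 (1389 of all genes), where each population alone gave 0. The other counts of members called stayed at 0. Where no count over all genes stands beside a member count, its change is not read as particular to the members. Without the replicate block Prdm1 kept its difference of 1.62 but not its call (adjusted p = 0.481), and the calls of the averaged contrasts were lost too, Prdm1, Irf4 and Bcl6 for BCR loss (adjusted p = 0.473 to 0.930) and Irf4, Pax5, Spib and Ebf1 for CHIR99021 (adjusted p = 0.602 to 0.751).

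Of 662 values of single members under alternatives, 626 kept their sign and side of the threshold, 9 lost and 7 gained a call, and 20 changed sign, all of them uncalled. After subtraction of array medians these were Irf8 for BCR loss untreated (-0.0275), with CHIR99021 (-0.0277) and in the interaction (-0.00024), Spib for BCR loss with CHIR99021 (-0.0048) and Prdm1 for CHIR99021 in BCR-positive cells (0.0053). After cyclic loess they were the interactions of Irf8 (-0.0421) and Pou2af1 (-0.0221). Leaving out a lymphoma gave, for BCR loss untreated, -0.13 to 0.0693 (Irf8), and with CHIR99021 -0.16 to 0.40 (Bach2), -0.0885 to 0.0725 (Irf8) and -0.0844 to 0.16 (Spib). For CHIR99021 in BCR-positive cells it gave -0.0462 to 0.0376 (Prdm1). For the interaction it gave -0.15 to 0.16 (Irf8), -0.0401 to 0.10 (Pou2af1), -0.15 to 0.14 (Irf4), -0.24 to 0.0437 (Xbp1) and -0.11 to 0.23 (Ebf1). For treated BCR-negative against untreated BCR-positive cells it gave -0.19 to 0.0057 (Pou2af1) and -0.0217 to 0.18 (Irf4). The cause of these changes was not tested. The interaction could not be fitted from the arrays of 1 comparison, so that alternative has no value for it.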
